A study of Mus musculus with 5 samples.

Results

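Braf, Nras, Nf1, Gnaq, Gna11, Map2k1, Rac1 and Bap1 are 8 genes known from human melanoma, where they are mutated, activated or lost. They were taken by name from a table of 24100 genes, and all 8 were found in it. Their RNA was compared between quiescent melanocyte stem cells (McSC), the resting reserve of pigment cells in the hair follicle, and melanocytes of growing follicles. RNA levels were measured here and mutations were not. Of the 8 genes, Braf was higher in melanocytes, by 1.95-fold. Gnaq, Map2k1, Nf1 and Bap1 were higher in quiescent McSC, Gnaq by 2.00-fold and the others by 1.29-fold to 1.42-fold. Nras, Gna11 and Rac1 were not called in either direction.

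Cells were sorted from back skin of male mice, and no treatment is given in the labels. The 2 quiescent McSC libraries came from Dct-eGFP+ mice of a CD1/C57Bl6J mix during the second telogen, the rest phase of the hair cycle, on postnatal days 60 and 62, each from 4 pooled males. The 3 melanocyte libraries came from Dct-EGFP+ Lef1-RFP+ mice of the same mix at postnatal day 10, in the full growth phase (anagen), from 3, 2 and 4 pooled males. Both sorts took cells with the green Dct reporter and medium to low integrin α6, and removed cells with CD34, Sca1, CD140a, CD45 or CD31. The melanocyte sort also required the Lef1 reporter and c-Kit. The groups thus differed at once in age, in hair cycle stage, in reporters and in gate, whose parts in a difference cannot be told apart. A sort by a Dct or Lef1 reporter takes whatever cell carries the fluorescence, and each library averages several animals.

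In melanocytes and melanoma, receptors switch on RAS proteins such as NRAS, which recruit RAF kinases such as BRAF. RAF phosphorylates MEK kinases, of which MEK1 is the product of Map2k1, and MEK phosphorylates ERK. NF1 (neurofibromin) switches RAS off. GNAQ and GNA11 are the alpha subunits of Gq class G proteins, which act through phospholipase C and protein kinase C, and both are mutated in human uveal melanoma. In mice, activating mutations of either gene darken the skin. RAC1 is a GTPase that drives actin-based protrusions, and mouse melanoblasts need it to migrate. BAP1 removes ubiquitin from histone H2A and is lost in many human uveal melanomas.

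Sequences before the start sites of the strongest movers and of the Gq pair are shown because they carry the sequence motifs described here. They are credited to RefSeq on the build GRCm38.p6. Positions are counted from the start site of the promoter entry, which for Braf (39725463) lies 195 bases inside the gene span given here, so the Braf stretch lies within that span. The entry start sites of Nf1 and Bap1 lie 302 and 137 bases inside their spans, and those of Gnaq, Gna11, Nras and Map2k1 coincide with the first base of their spans, read along the gene. A promoter entry was matched for 7 of the 8 genes, and none was matched for Rac1. Capitals mark the cAMP response element TGACGTCA in Braf and the GC box GGGCGG, on either strand, in Gnaq and Gna11.
Braf, minus strand, chr6:39725535-39725564, bases 101 to 72 before the entry's start site: gaTGACGTCAcgcacccaggTGACGTCAcg
Gnaq, plus strand, chr19:16132434-16132683, bases 250 to 1 before the start site: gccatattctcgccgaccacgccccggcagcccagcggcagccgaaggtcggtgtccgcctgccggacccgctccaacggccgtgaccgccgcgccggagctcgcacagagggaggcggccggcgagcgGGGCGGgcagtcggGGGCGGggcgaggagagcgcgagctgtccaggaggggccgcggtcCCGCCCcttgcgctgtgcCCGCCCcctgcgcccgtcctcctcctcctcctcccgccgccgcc
Gna11, minus strand, chr10:81545191-81545412, bases 250 to 29 before the start site: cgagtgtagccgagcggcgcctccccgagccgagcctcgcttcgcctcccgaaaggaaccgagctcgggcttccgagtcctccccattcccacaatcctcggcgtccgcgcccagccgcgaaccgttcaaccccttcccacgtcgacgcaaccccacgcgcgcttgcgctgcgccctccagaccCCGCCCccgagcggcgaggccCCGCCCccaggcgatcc
Both strands of the 250 bases before the start site were searched for each motif. The palindrome TGACGTCA, the binding motif of CREB family factors, occurred at 2 sites before the start site of the Braf entry, inside the Braf span, and at 0 sites before the other 6 genes, while 1.55% of all 32851 promoters of the reference held it. The GC box, a motif of SP family factors, occurred 4 times each before Gnaq and Map2k1, 3 times before Bap1, 2 times each before Gna11 and Nras, and once before Braf, against 32.7% of all promoters with at least 1 site. The E-box CACGTG, a motif of MITF and related factors, was found at 1 site each before Bap1 and Nras (6.02% of all promoters), and CATGTG at 1 site before Braf (12.3%). The CCAAT box was found 2 times before Map2k1 (33.8%), and the ETS motif CCGGAAGT at 1 site before Nf1 (2.88%). A match of letters is a description and says nothing of binding.

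Total counts ranged from 17512381 to 124530834 per library. Melanocyte markers (Dct, Tyr, Tyrp1, Pmel, Mlana, Mitf, Sox10 and Kit) were present in all 5 libraries. Their summed level was 19060 to 20296 CPM (counts scaled to library size) in quiescent McSC. It was 17596 and 19163 CPM in melanocyte replicates 2 and 3. Melanocyte replicate 1 stood apart, at 2996 CPM. Dct was the largest part of the sum in every library. Of the 8 markers, 3 (Mitf, Kit and Sox10) were called higher in quiescent McSC and 5 were not called. Mitf read 1177 and 1033 CPM in quiescent McSC and 43.7, 120 and 139 CPM in melanocytes. Tyr, Tyrp1, Pmel and Mlana lay higher in melanocyte replicates 2 and 3 than in both quiescent McSC libraries. All 8 hair follicle markers and all 7 fibroblast and dermal papilla markers were higher in melanocytes, at summed levels of 3297 to 4800 and 1877 to 5240 CPM against 6.81 to 48.9 and 11.6 to 39.8 CPM. The 6 cell cycle genes were higher there too (1961 to 2021 against 32.1 to 74.0 CPM), and the 7 immediate early genes were lower (1781 to 2030 against 21997 to 36056 CPM). Endothelial markers summed to 16.4 to 40.9 CPM in melanocytes and 0.722 to 1.12 CPM in quiescent McSC, with Cdh5 and Emcn at 0 in quiescent McSC replicate 1. Keratinocyte markers summed to 2167 to 3163 CPM in melanocytes and 2470 to 3421 CPM in quiescent McSC. Schwann cell markers summed to 185 to 251 CPM and 836 to 1058 CPM in the same order. Immune markers summed to 23.8 to 42.6 CPM and 14.5 to 23.3 CPM, with Cd3e at 0 in quiescent McSC replicate 1. The part of these cells and states in the differences below was not tested. In bulk samples, fewer cells of a type and less RNA per cell cannot be told apart.

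A gene was called when its Benjamini-Hochberg adjusted p in the edgeR quasi-likelihood test, over all 16953 genes tested, was under 0.05. Levels are TMM-normalized CPM. A positive log2 fold change means a higher level in melanocytes, and its standard error (SE) follows it. Of the 8 genes, 5 were called (62.5%), against 55.4% of all tested genes. Of these, 1 was higher in melanocytes and 4 were higher in quiescent McSC, while 29.1% and 26.2% of all tested genes were called in those directions. The levels of the groups did not overlap for 5 of the 8 genes (62.5%), against 74.5% of all tested genes. Both shares lie near the background. The median size of the change was 0.42 on the log2 scale over the 8 genes and 0.82 over all tested genes. Scaling by library size only shifted the median log2 fold change over all genes to 0.26, from 0.03, and 2 of the 8 genes were then called in each direction. Without melanocyte replicate 1, Braf, Gnaq (-0.95), Map2k1 (-0.43), Nf1 (-0.48) and Bap1 (-0.36) were called in the same directions, and Nras, Gna11 and Rac1 were not.

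**Figure D1:**
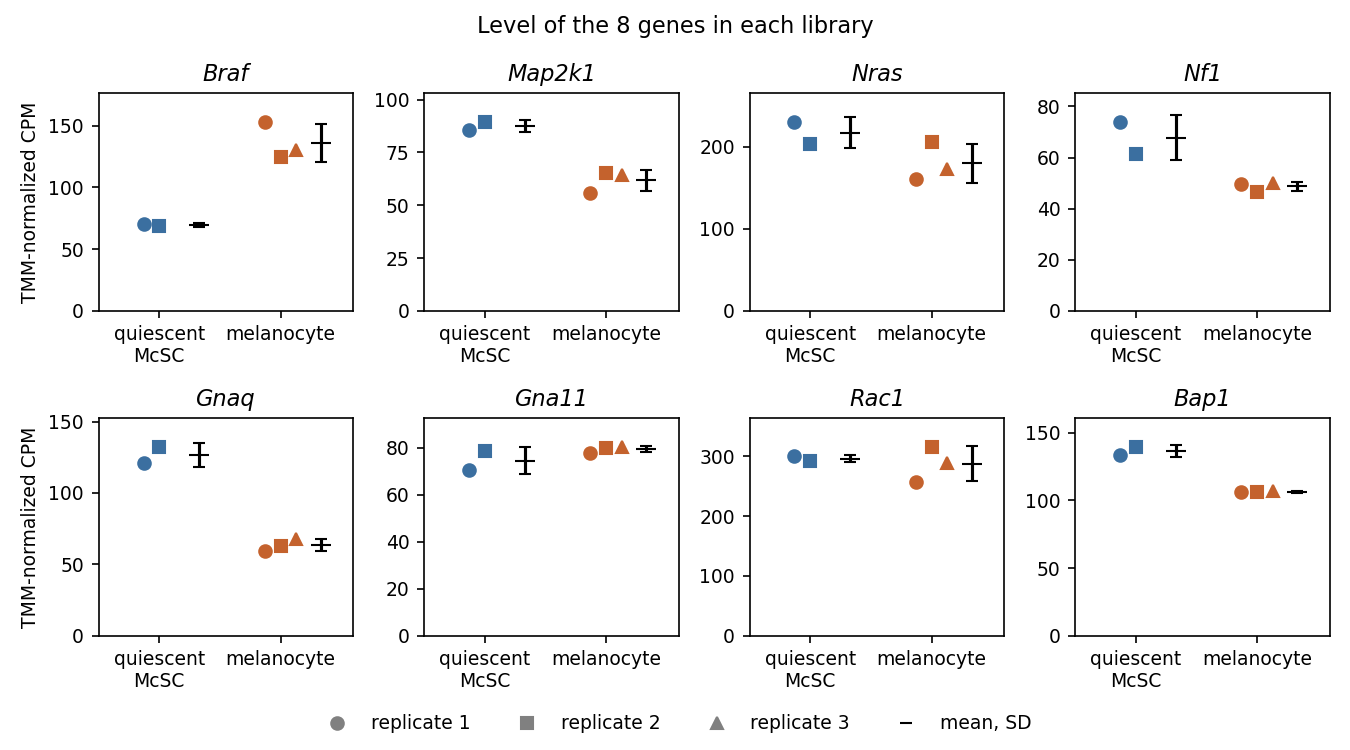
TMM-normalized CPM of each of the 8 genes in the 5 libraries, 1 panel a gene with its own axis from 0. Points are libraries, shaped by replicate, and bars are mean and SD (n = 2 and n = 3); Braf lies higher in all 3 melanocyte libraries, and Gnaq, Map2k1, Nf1 and Bap1 lie lower in all 3.

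Nras, the RAS GTPase most often mutated in human melanoma (chromosome 3, 103058285 to 103067914), stood at 230 and 204 CPM in quiescent McSC and at 160, 206 and 173 CPM in melanocytes. The groups overlapped, since melanocyte replicate 2 lay above quiescent McSC replicate 2. The difference was not called (log2 fold change -0.27 ± 0.15 SE, 95% interval -0.63 to 0.09, adjusted p = 0.164). Without melanocyte replicate 2 it was called higher in quiescent McSC (-0.41, adjusted p = 0.0453).

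Hras, another RAS gene, was 4.08-fold higher in melanocytes, rising from 44.5 ± 2.22 to 181 ± 19.0 CPM (2.03 ± 0.13, adjusted p = 0.000131). Its call held in all 14 alternatives.

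Nf1, the RAS-inactivating tumour suppressor (chromosome 11, 79339590 to 79581609), read 74.0 and 61.5 CPM in quiescent McSC and 49.6, 46.6 and 50.04 CPM in melanocytes. Both quiescent McSC libraries lay above all melanocyte libraries. Nf1 was called higher in quiescent McSC (-0.48 ± 0.12, 95% interval -0.77 to -0.18, adjusted p = 0.0163). The call was lost with library size only (-0.25, adjusted p = 0.162) and when quiescent McSC replicate 1 was left out (-0.34, 0.122). Within its span lies Omg, a myelin glycoprotein gene, at 0.246 ± 0.0829 and 5.19 ± 3.76 CPM, below the level of Nf1 in every library.

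Among 20 exchange factors, GTPase-activating proteins and partners of RAS (all tested), 4 were higher in melanocytes, 6 were higher in quiescent McSC and 10 were not called (50% called, against 55.4% of all tested genes), and the median log2 fold change was -0.26 against 0.03 over all tested genes. Without quiescent McSC replicate 2 or melanocyte replicate 2, the number higher in melanocytes was 1 or 2. Rasa3, a GTPase-activating protein of RAS and RAP1, was lower in melanocytes, at 43.7 ± 9.87 against 295 ± 4.71 CPM (-2.76 ± 0.20, adjusted p = 0.000181). The SPRED proteins carry NF1 to the membrane, and their genes moved in opposite directions. Spred1 was higher in quiescent McSC (241 ± 4.83 against 120 ± 5.98 CPM, adjusted p = 0.000573), and Spred2 in melanocytes (85.4 ± 1.62 against 19.8 ± 4.50 CPM, adjusted p = 0.000237). The summed level of the 20 genes was 1138 to 1143 CPM in quiescent McSC and 725 to 749 CPM in melanocytes. Rasa3 and Spred1, both higher in quiescent McSC, were the most abundant of the 20 genes there. The list mixes genes that switch RAS on with genes that switch it off, so the sum has no direction for RAS.

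Braf, the RAF kinase activated in many human melanomas (chromosome 6, 39603231 to 39725658), stood at 70.5 and 68.6 CPM in quiescent McSC and at 153, 124 and 130 CPM in melanocytes. All 3 melanocyte libraries lay above both quiescent McSC libraries, and melanocyte replicate 1 was the highest. The log2 fold change was 0.97 ± 0.13 SE (95% interval 0.66 to 1.28, adjusted p = 0.00135). It was 0.88 without melanocyte replicate 1 (adjusted p = 0.000501). The call held in all 14 alternatives, with log2 fold changes of 0.88 to 1.19.

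Araf, another RAF kinase gene, was lower in melanocytes (85.3 ± 9.72 against 125 ± 3.75 CPM, adjusted p = 0.0109). The call of Araf was lost without quiescent McSC replicate 1 (0.0522) or 2 (0.0703) and with library size only (0.106).

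Map2k1, which encodes MEK1 (chromosome 9, 64185769 to 64253605), read 85.5 and 89.5 CPM in quiescent McSC and 55.9, 65.1 and 64.2 CPM in melanocytes. The groups did not overlap, and Map2k1 was called higher in quiescent McSC (-0.50 ± 0.11, 95% interval -0.77 to -0.23, adjusted p = 0.0100). Leaving out quiescent McSC replicate 2 removed the call (-0.47, adjusted p = 0.0701). Its partner Map2k2, which encodes MEK2, was called higher in melanocytes (123 ± 15.3 against 89.5 ± 11.4 CPM, adjusted p = 0.0378), a call that leaving out quiescent McSC replicate 1 (0.221) or 2 (0.0670) or melanocyte replicate 3 (0.0844) removed. Map2k1 held 63.7% and 60.5% of the MEK pair per kilobase of exon in quiescent McSC and 44.5%, 49.1% and 43.2% in melanocytes. The two-sided exact permutation test of this share gave p = 0.2, the smallest it can give with 10 arrangements, and 0.25 after adjustment over 5 families. With the longest protein-coding transcript as length, the mean shares were 49.2% and 33.2%, so which gene of the pair was the more abundant in quiescent McSC depended on the length used. The sum of the pair was 41.6 ± 2.84 CPM per kilobase in quiescent McSC and 40.0 ± 3.48 in melanocytes.

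Of 13 RAS, RAF, MEK and ERK relatives of these genes, 12 were tested: 3 were higher in melanocytes, 6 were higher in quiescent McSC and 3 were not called (75% called, against 55.4% of all tested genes), and Ksr2 was not tested. Their median log2 fold change was -0.43, against 0.03 over all tested genes. Without quiescent McSC replicate 1 or 2 the counts were 1 and 3, and with library size only 3 and 2. Mapk3, which encodes ERK1, was called higher in quiescent McSC (136 ± 17.9 against 98.7 ± 8.02 CPM, adjusted p = 0.0243). Its call was lost with library size only (0.114) and when quiescent McSC replicate 2 (0.167) or melanocyte replicate 3 (0.0509) was left out. Rras2 and Mras, relatives of RAS, were lower in melanocytes, at log2 fold changes of -1.64 ± 0.15 and -1.84 ± 0.24 (adjusted p = 0.00036 and 0.00133).

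Of 10 transcripts used as a readout of ERK signalling, 5 were higher in melanocytes, 2 were higher in quiescent McSC and 3 were not called (70% called, against 55.4% of all tested genes), in the full comparison and without any single library. Etv4, an ETS factor, was at 127 ± 10.3 against 23.2 ± 2.55 CPM (2.45 ± 0.14, adjusted p = 8.07e-05). Ccnd1, which encodes cyclin D1, was at 213 ± 7.38 against 17.9 ± 6.33 CPM (3.57 ± 0.25, adjusted p = 0.000161), and Epha2, a receptor tyrosine kinase gene, at 204 ± 35.05 against 62.5 ± 2.81 CPM (1.71 ± 0.18, adjusted p = 0.000592). The feedback genes Phlda1 and Spry2 went the other way, at log2 fold changes of -2.91 ± 0.61 and -1.53 ± 0.17 (adjusted p = 0.00809 and 0.000735). Dusp6, which encodes an ERK phosphatase, was not called (193 ± 9.26 and 165 ± 20.1 CPM, adjusted p = 0.205). The part of the cell cycle genes (all higher in melanocytes) and of the immediate early genes (all lower) in these differences was not tested.

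**Figure D2:**
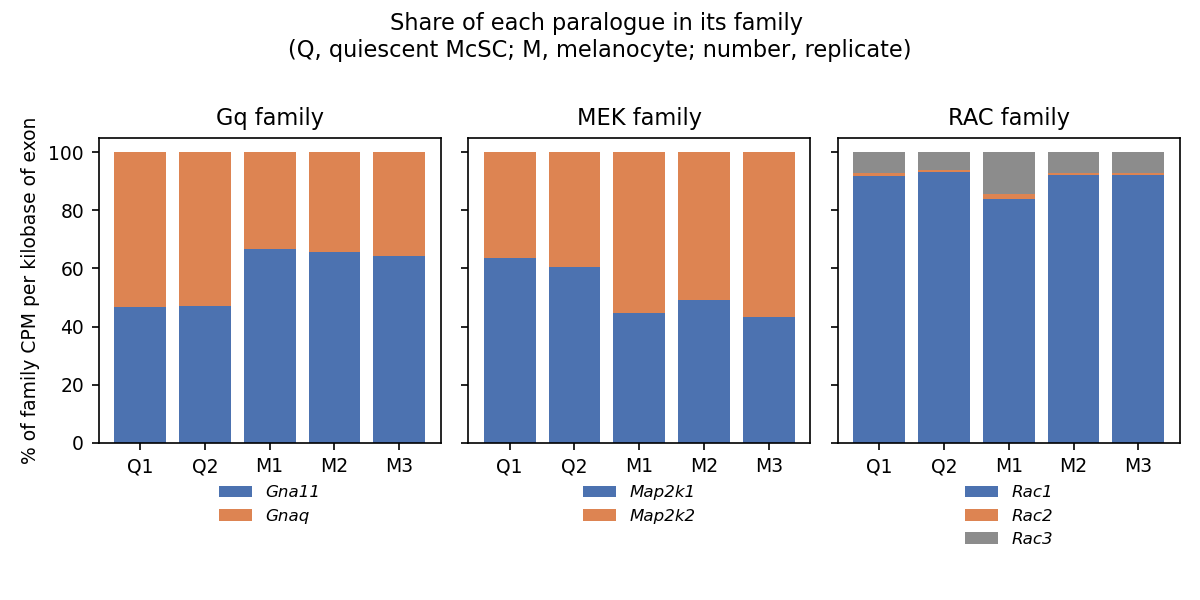
Share of each gene in its paralogue family in each library, in percent of the family's CPM per kilobase of exon. The Gq panel holds Gna11 and Gnaq only, without Gna14 and Gna15. Bars are libraries (Q quiescent McSC, M melanocyte, with the replicate number), and colours are genes; the Gna11 share is 46.9% to 47.2% in Q and 64.3% to 66.5% in M, and that of Map2k1 60.5% to 63.7% and 43.2% to 49.1%.

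Gnaq (chromosome 19, 16132684 to 16388520) stood at 121 and 132 CPM in quiescent McSC and at 59.2, 63.0 and 67.6 CPM in melanocytes. The lowest quiescent McSC library lay well above the highest melanocyte library. Gnaq was lower in melanocytes (log2 fold change -1.0 ± 0.11 SE, 95% interval -1.26 to -0.74, adjusted p = 0.000643), and the call held in all 14 alternatives, from -1.07 to -0.78. Gna11 (chromosome 10, 81528724 to 81545162) read 70.5 and 78.5 CPM in quiescent McSC and 77.8, 80.0 and 80.5 CPM in melanocytes. The groups overlapped and the difference was not called (0.09 ± 0.10, 95% interval -0.15 to 0.34, adjusted p = 0.464), but it was called higher in melanocytes with library size only (0.32, adjusted p = 0.0320).

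Per kilobase of exon, Gna11 made up 46.9% and 47.2% of the pair in quiescent McSC and 66.5%, 65.7% and 64.3% in melanocytes. Gnaq was thus slightly the more abundant in quiescent McSC and Gna11 in melanocytes, in every library. The exact permutation test gave p = 0.2, the smallest possible (0.25 adjusted). The sum of the pair was 38.6 ± 2.73 CPM per kilobase in quiescent McSC and 29.6 ± 1.01 in melanocytes. These shares and this sum leave out the other Gq class subunit genes, Gna15 and Gna14. Gna15 was called higher in melanocytes (7.38 ± 1.27 against 2.08 ± 0.292 CPM per kilobase, adjusted p = 0.00144). Gna14 was not called (1.14 ± 0.723 against 0.568 ± 0.134 CPM per kilobase, adjusted p = 0.163). The part of reads shared between the paralogues was not tested.

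Of 18 other Gq class subunits, receptors, regulators and effectors, 17 were tested: 7 were higher in melanocytes, 4 were higher in quiescent McSC and 6 were not called (64.7% called, against 55.4% of all tested genes), and Cysltr2 was not tested. The median log2 fold change was 0.24, against 0.03 over all tested genes. The number higher in melanocytes was 4 without either quiescent McSC replicate, and the number higher in quiescent McSC was 2 without replicate 1 of that group and 7 without melanocyte replicate 1. Plcb4, a phospholipase C gene mutated in some human uveal melanomas, was lower in melanocytes (7.64 ± 2.44 against 50.7 ± 2.59 CPM, -2.74 ± 0.28, adjusted p = 0.00057). Prkcd, a protein kinase C gene, was higher there (103 ± 10.1 against 46.0 ± 0.640 CPM, adjusted p = 0.000599), and so was Yap1, a transcriptional co-activator gene (263 ± 13.6 against 138 ± 3.08 CPM, adjusted p = 0.00103). Other genes of these kinds in the list went the other way. Prkce (20.2 ± 2.81 against 34.9 ± 0.902 CPM, adjusted p = 0.00708) and Wwtr1 (73.5 ± 5.80 against 126 ± 0.0509 CPM, adjusted p = 0.00157) were lower in melanocytes, and Prkca was not called. The endothelin receptor gene Ednrb, whose receptor couples to Gq, read 1257 and 1080 CPM in quiescent McSC and 139, 713 and 736 CPM in melanocytes, a difference that missed the threshold (adjusted p = 0.177). Without melanocyte replicate 1, the library with the lowest sum of melanocyte markers, Ednrb was called higher in quiescent McSC (-0.68, adjusted p = 0.00781).

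Rac1 (chromosome 5, 143505481 to 143528031) was the most abundant of the 8 genes, at 301 and 292 CPM in quiescent McSC and at 258, 316 and 288 CPM in melanocytes. The groups overlapped, and the melanocyte values lay on both sides of the quiescent McSC values. The log2 fold change was -0.04 ± 0.13 (95% interval -0.37 to 0.28, adjusted p = 0.797), and it turned to 0.17 with library size only and to 0.033 without melanocyte replicate 1. Rac1 made up 91.9% and 93.3% of Rac1, Rac2 and Rac3 per kilobase of exon in quiescent McSC and 83.8%, 92.2% and 92.0% in melanocytes (exact p = 0.6, 0.6 adjusted). The low share was that of melanocyte replicate 1, and the difference of -3.26 points was -0.50 points without it.

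Exchange factors switch RAC on. Of 24 RAC relatives, regulators and effectors, 9 were higher in melanocytes, 2 were higher in quiescent McSC and 13 were not called (45.8% called, against 55.4% of all tested genes), and the median log2 fold change was 0.36. Without quiescent McSC replicate 1 the number higher in melanocytes was 5. Vav3 rose from 5.50 ± 0.755 to 168 ± 14.3 CPM (4.93 ± 0.17, adjusted p = 3.65e-05), and Tiam1 from 24.2 ± 1.30 to 93.1 ± 15.3 CPM (1.95 ± 0.17, adjusted p = 0.000334). Prex2, an exchange factor that is often mutated in human melanoma, fell from 223 ± 10.6 to 14.3 ± 4.85 CPM (-3.95 ± 0.27, adjusted p = 0.00015).

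Bap1 (chromosome 14, 31251352 to 31259930) read 134 and 140 CPM in quiescent McSC and 106, 106 and 107 CPM in melanocytes. The groups did not overlap, and Bap1 was called higher in quiescent McSC (-0.36 ± 0.09, 95% interval -0.59 to -0.14, adjusted p = 0.0168). The call was lost with library size only (-0.14, adjusted p = 0.243) and when quiescent McSC replicate 1 (0.0702) or 2 (0.109) or melanocyte replicate 3 (0.0527) was left out. Phf7 lies 7 bases from Bap1 and moved the other way, from 6.59 ± 0.0866 to 10.5 ± 1.10 CPM (0.67 ± 0.20, adjusted p = 0.0329). Their spans do not overlap, but the libraries were not stranded, so reads near or across the gap could be counted to either gene. The part of such reads in the level of Phf7 was not tested. Its call was lost without quiescent McSC replicate 1 (0.141) or 2 (0.132) and without melanocyte replicate 2 (0.0875) or 3 (0.0756).

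Of 10 other subunits of the BAP1 complex, 2 were higher in melanocytes, 4 were higher in quiescent McSC and 4 were not called (60% called, against 55.4% of all tested genes), and the median log2 fold change was -0.13. The number higher in quiescent McSC was 2 with library size only, and also when either replicate of that group or melanocyte replicate 3 was left out. Asxl3, whose family activates BAP1, fell from 13.3 ± 0.916 to 0.857 ± 0.158 CPM (-3.93 ± 0.26, adjusted p = 0.000136). Asxl1 and Asxl2 were not called and each averaged 105 to 108 CPM in both groups. The forkhead partners moved in opposite directions: Foxk1 was higher in quiescent McSC (144 ± 24.2 against 62.5 ± 6.79 CPM, adjusted p = 0.00109), and Foxk2 in melanocytes (123 ± 6.86 against 62.9 ± 3.37 CPM, adjusted p = 0.000713).

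**Figure D3:**
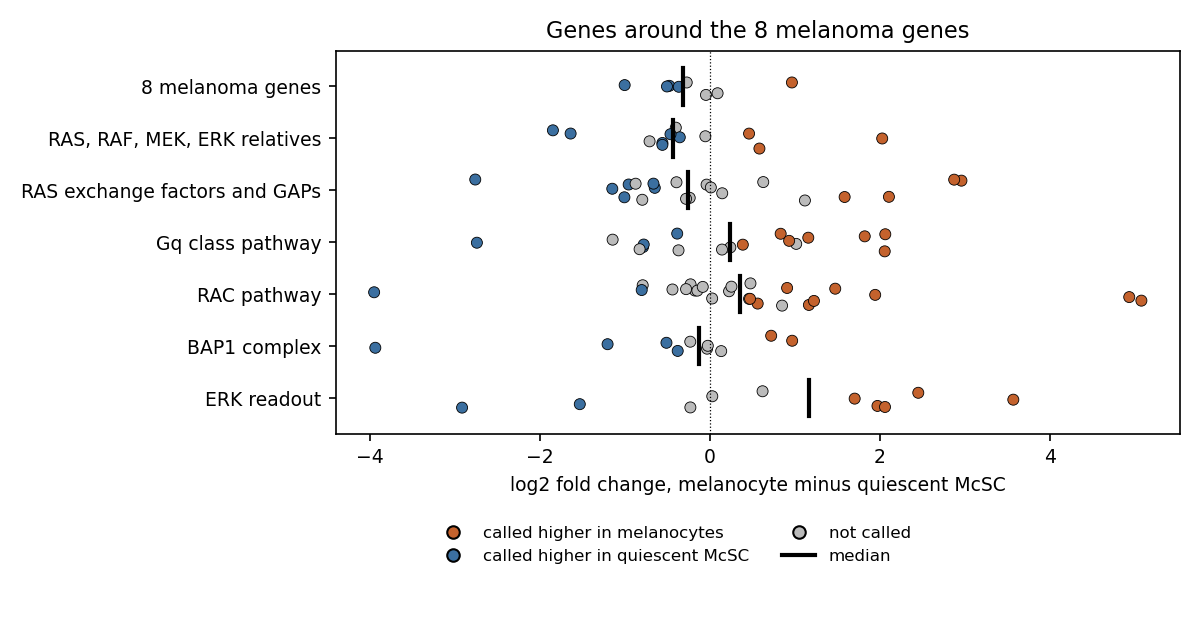
Log2 fold change (melanocyte minus quiescent McSC) of the 8 melanoma genes and of each list of related genes, 1 point a tested gene and a black bar at the median. Orange and blue points were called higher in melanocytes and in quiescent McSC; the median of the 8 genes was -0.32 and that of the ERK readout 1.16.

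Per kilobase of exon, the order of the 8 genes in quiescent McSC was Rac1 (65.9 CPM per kilobase), Nras (40.7), Bap1 (29.2), Map2k1 (25.8), Gnaq (20.5), Gna11 (18.2), Braf (5.02) and Nf1 (4.27). Every neighbour in this order lay apart from the next in both libraries. In melanocytes the order was Rac1 (63.9), Nras (33.7), Bap1 (22.7), Gna11 (19.4), Map2k1 (18.2), Gnaq (10.2), Braf (9.80) and Nf1 (3.08). Here the libraries of Gna11 and Map2k1 overlapped, and so did those of Gnaq and Braf. Rac1 stood above 96.1% of tested genes with an exon length in quiescent McSC, and Nf1 above 50.3%. The exon length counts every annotated exon and was 13862 bases for Braf and 15850 for Nf1, against 3391 to 6185 bases for the other 6 genes. Parts of the order depended on the length used. With the longest protein-coding transcript, Braf (15.7, 12.8 and 13.4 CPM per kilobase) lay above Gnaq (10.5, 11.2 and 12.0) in melanocytes. In quiescent McSC, Gnaq (21.4 and 23.5) and Gna11 (20.7 and 23.0) then overlapped.

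**Figure D4:**
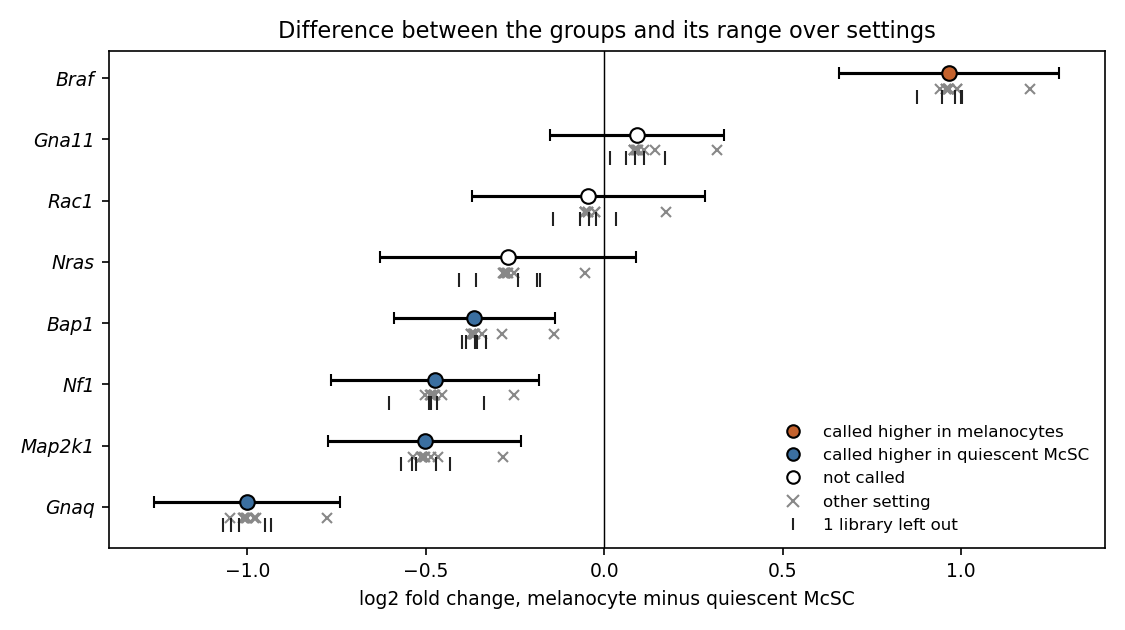
Log2 fold change (melanocyte minus quiescent McSC) of each of the 8 genes with its 95% interval, ordered by size. Crosses are other processing settings and ticks are fits with 1 library left out. Rac1 lies on both sides of 0 and every other gene keeps its sign, while only Braf and Gnaq keep a call in all of them.

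The genes whose pattern over the 5 libraries was nearest to each of the 8 were found among 8493 tested genes of at least 20 CPM, by the root mean square difference of centred log2 CPM. Nras had the closest neighbour, Lims1 (0.00872), followed by Adam9 (0.0213). Bap1 was nearest to Tubgcp3 (0.0153) and Ric8a (0.0199), and Rac1 to Cfap97 (0.0156) and Reep5 (0.0178). Gna11 was nearest to Dcps (0.0199) and Pih1d1 (0.0260), Nf1 to Rabggtb (0.0205) and Prnp (0.0370), and Map2k1 to Tm2d2 (0.0260) and Cir1 (0.0275). Braf was nearest to Cc2d1b (0.0288) and 2310015A10Rik (0.0295), and Gnaq to Acox3 (0.0371) and Pepd (0.0377). The 5 libraries form 2 groups, so a gene with a similar group difference scores as near, and the measure says nothing of shared function.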

How the data were processed

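RNA of sorted cells was measured by non-stranded, poly-A selected sequencing in 2 quiescent McSC and 3 melanocyte libraries, which are biological replicates per the labels. The authors deposited whole-number counts per gene and library by Entrez identifier, read here as raw counts. The submitters' processing notes name STAR 2.5.2a, Salmon 0.8.2 and the build mm10 without their roles; the counting program is not given in the sources used here. Of 24100 genes, 24045 matched a RefSeq symbol (GRCm38.p6). A count of 3 corresponded to 0.0241 to 0.171 CPM.

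Genes passing filterByExpr were TMM-normalized and compared by edgeR 4.0.16 (quasi-likelihood test, two-sided, R 4.3.3) over all 5 libraries with no covariate, with Benjamini-Hochberg adjustment over 16953 genes and a threshold of 0.05. SE is the size of the log2 fold change divided by the square root of F, and intervals are at 95%. The procedure was run on simulated data with as many rises as falls, which do not test the choice of scaling. Its outcome is not given here. Levels are mean ± SD, n = 2 and n = 3. Exon lengths are from GENCODE M21. Shares within families were compared by an exact permutation test, which cannot go under 0.2 here. Alternatives were relative log expression size factors, library size only, library sizes without the 20 most abundant genes, a filter of 1 count or of at least 5 CPM in 2 libraries, limma-voom (limma 3.58.1), DESeq2 1.42.0, thinning to 17512381 counts, a replicate block, leaving out each library and, for shares, counts without length. Shares and levels by the length of the longest transcript were added after the data were seen.

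The members, gene lists and tests were chosen with earlier results of these data known, so no count of them is independent support. Named were all 8 members, their paralogues, up to 3 genes of the smallest p in each list, and the 2 nearest genes to each member. Mapk3, Ednrb, Gna14, Gna15, Prkca, Prkce, Wwtr1, Phlda1, Spry2, Dusp6, Asxl1, Asxl2, Omg and Phf7 were chosen with their values in view. A few genes and family shares covered by this rule are not reported here.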

Additional observations from a re-analysis of the deposited data

How the results depend on the processing

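Braf, Gnaq, Hras, Vav3, Prex2 and Etv4 kept direction and call in all 14 alternatives. Over the genes followed singly, 527 of the single-gene values stayed on their side of the threshold, 41 lost and 3 gained a call, and 2 turned, both of Rac1 (0.17 with library size only, and -0.14 to 0.033 with 1 library left out). With library size as the only scaling, 6064 genes were called toward melanocytes and 3456 toward quiescent McSC, against 4937 and 4448, and the counts were 2 and 2 for the 8 members, 2 for RAS and ERK relatives higher in quiescent McSC and 2 for BAP1 partners higher there. Under the stricter filter 1 of the RAS regulators was higher in melanocytes. Deviations from the group means correlated little between libraries of the same number (0.040 for number 1 and -0.055 for number 2). The deviations of the 2 quiescent McSC libraries mirror each other by construction, so this check cannot decide whether the numbers pair the libraries. With the number as a block, 3933 and 3479 genes were called, and melanocyte replicate 3, alone with its number, carries no weight; of the members, 1 was higher in quiescent McSC, and of the RAS and ERK relatives 1 was higher in melanocytes and 2 in quiescent McSC, and of the BAP1 partners 2 in quiescent McSC. The adjusted p was 0.0706 for Nf1, 0.0527 for Map2k1 and 0.145 for Bap1 under that block; Map2k2, Mapk3, Araf and Phf7 also lost their calls, and the cause was not tested. Phf7 also lost its call after thinning (adjusted p = 0.0805). Leaving out 1 library gave 3310 to 5148 genes higher in melanocytes and 2955 to 4857 higher in quiescent McSC, the lowest without quiescent McSC replicate 2. It gave 2 to 5 members higher in quiescent McSC, 1 to 3 and 3 to 7 RAS and ERK relatives (melanocytes, then quiescent McSC), 1 to 4 RAS regulators higher in melanocytes, 4 to 6 and 2 to 7 Gq genes, 5 to 8 RAC genes higher in melanocytes and 2 to 4 BAP1 partners higher in quiescent McSC. In fits with a lone quiescent McSC library, that library is assumed to vary like the melanocytes. Thinning to the shallowest library left the SE of Nras at 0.14, of Gna11 at 0.099 and of Rac1 at 0.12, against 0.15, 0.10 and 0.13 at full depth.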
